A study of Mus musculus with 14 samples.

Results

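In all, 10 immediate-early genes were followed: Fos, Fosb, Jun, Junb and Atf3, which encode subunits of AP-1 and related factors, Egr1, Egr2 and Egr3, which encode zinc finger factors of the EGR family, and Ier2 and Plk3. They were chosen by name, and each had 1 row of its own in the deposited expression table, so they made up 10 of its 39721 entries. All 10 passed the filter on low values, among 11977 entries tested. The 14 libraries came from bone marrow derived macrophages. The mice were C57Bl6/J males of 6 to 12 weeks, and the cells were grown in medium conditioned by L929 cells as a source of CSF-1. Cells received PBS or Poly I:C, a synthetic double-stranded RNA, at 100 ng/mL for 24 h. They were then washed and given PBS or LPS, a bacterial cell wall lipid, for 2 h or 6 h, and the dose of this second LPS is not stated in the labels used here. PBS followed by PBS had 1 library at each time, while PBS then LPS, Poly I:C then PBS, and Poly I:C then LPS had 2 libraries each at each time. Cells given Poly I:C first are called primed below, and those given PBS first unprimed. No label says that replicates came from separate mice or cultures, so the p-values measure only the spread between these libraries, which may be technical.

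Immediate-early genes are transcribed within minutes of a stimulus from factors already present in the cell, and their mRNAs are usually short-lived. Fos and Jun proteins pair through leucine zippers to form AP-1, while EGR proteins bind GC-rich sites through zinc fingers. In macrophages, Toll-like receptor signalling through MAP kinases is known to induce many of these genes. Serum response factor, which binds the CArG box, is a textbook activator of several of them.

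Promoter sequence from RefSeq (build GRCm38.p6) was matched for 7 of the 10 genes, in 11 windows of the 250 bases before a transcription start. The windows of 3 genes are shown, because Egr2 had one of the largest rises in primed cells at 2 h, and because Fos and Jun fell together in primed cells at 6 h. Capitals mark every match, on either strand, to the 5 motifs searched, and overlapping matches run together. The windows are chr10:67537619-67537868 on the plus strand for Egr2, chr12:85473640-85473889 on the plus strand for Fos, and chr4:95052223-95052472 on the minus strand for Jun, each written 5′ to 3′ in the direction of transcription.
Egr2: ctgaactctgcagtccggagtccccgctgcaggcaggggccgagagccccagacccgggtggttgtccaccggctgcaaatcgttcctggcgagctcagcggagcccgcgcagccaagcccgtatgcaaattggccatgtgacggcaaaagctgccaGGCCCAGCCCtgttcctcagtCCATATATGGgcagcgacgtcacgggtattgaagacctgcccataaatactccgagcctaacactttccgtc
Fos: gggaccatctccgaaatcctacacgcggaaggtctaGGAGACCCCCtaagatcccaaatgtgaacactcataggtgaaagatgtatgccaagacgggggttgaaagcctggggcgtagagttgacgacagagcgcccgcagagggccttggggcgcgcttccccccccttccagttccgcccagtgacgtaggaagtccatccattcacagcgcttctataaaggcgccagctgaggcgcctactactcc
Jun: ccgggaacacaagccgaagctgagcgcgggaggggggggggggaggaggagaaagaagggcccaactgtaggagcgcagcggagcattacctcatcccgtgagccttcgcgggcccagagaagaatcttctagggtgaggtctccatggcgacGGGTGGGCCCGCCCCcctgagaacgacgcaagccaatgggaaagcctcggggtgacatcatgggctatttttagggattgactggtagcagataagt

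The Egr2 window held the CArG box CCATATATGG, 72 to 63 bases before the start. Another Egr2 window, upstream of a different start, held CCTTTTTTGG at the same distance. A CArG box occurred in 1.47% of 32851 promoter windows of this length, and among the matched genes it was found in Egr2 alone. Egr2 had several of the 11 windows, some overlapping, and each other matched gene had a single window. Egr2 therefore had more sequence to hold a match than the share per window refers to. The cAMP response element TGACGTCA, in 1.55% of windows, and the AP-1 site TGANTCA, in 6.75%, were in none of the 11 windows. The EGR site GCGNGGGCG, in 4.70% of windows, was found in Fosb. A 10-letter NF-kB-like pattern, a run of 3 G, any 5 letters and a pair of C, occurred in 45.8% of windows. It was found in 6 of the 7 genes and supplied the other capitals above. Egr1, Egr3 and Ier2 had no window and were not searched. Only exact matches within the windows were sought, so their absence does not speak for near matches or for sites farther away. These matches are descriptions of the letters and do not show binding.

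Absolute depth is unknown, because the table holds FPKM and no counts. The FPKM value of a single fragment differed by at most 3.08-fold between libraries. All 8 macrophage markers were tested. Their summed level was 13857 to 20640 FPKM in unprimed libraries and 5361 to 8660 FPKM in primed libraries. This sum depends largely on Lyz2, which alone ranged from 2408 to 16240 FPKM over the libraries. Cd68 ranged from 946 to 2180 FPKM and Csf1r from 112 to 330 FPKM. The widest ranges beside Lyz2 were those of Fcgr1, at 30.9 to 932 FPKM, and Cd14, at 69.4 to 1985.5 FPKM. Emr1 was at 137 to 671, Itgam at 24.2 to 199 and Mertk at 8.39 to 28.3 FPKM. The sum does not give the direction of each marker with priming, which is not reported here. The sum of 4 dendritic cell markers was 0.143 to 3.93 FPKM in unprimed and 3.87 to 10.2 FPKM in primed libraries. Most of it was Xcr1, which reached 8.94 FPKM, while Zbtb46 reached 1.68, Flt3 0.200 and Siglech 0.136 FPKM. The sum of 4 endothelial markers was 7.81 to 14.5 FPKM in unprimed and 24.2 to 74.8 FPKM in primed libraries. Among them Kdr reached 48.0 and Vwf 32.1 FPKM, while Cdh5 reached 2.74 and Tek 0.0835 FPKM. The sum of 5 stromal markers was 14.4 to 59.3 FPKM in unprimed and 21.9 to 105 FPKM in primed libraries, ranges that overlap. The sum of 8 granulocyte markers was 7.20 to 8.33 FPKM in Poly I:C then LPS at 6 h and at most 2.15 FPKM in every other library. Cd3e, Cd3g, Cd8a, Elane, S100a9, Cpa3 and Ms4a2, which mark T cells, granulocytes and mast cells or basophils, were listed at 0 in all 14 libraries. Of the same lists, Cd4 was at 1.95 to 7.31 FPKM, S100a8 at 0 to 7.01 FPKM and Camp at 0 to 1.39 FPKM, and no other member passed 0.344 FPKM. The macrophage, dendritic cell and endothelial sums moved with priming, as did many results below. What part these markers had in those results was not tested. In bulk RNA, fewer cells of a type, less RNA per cell and a change of a marker gene itself cannot be told apart.

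**Figure D1:**
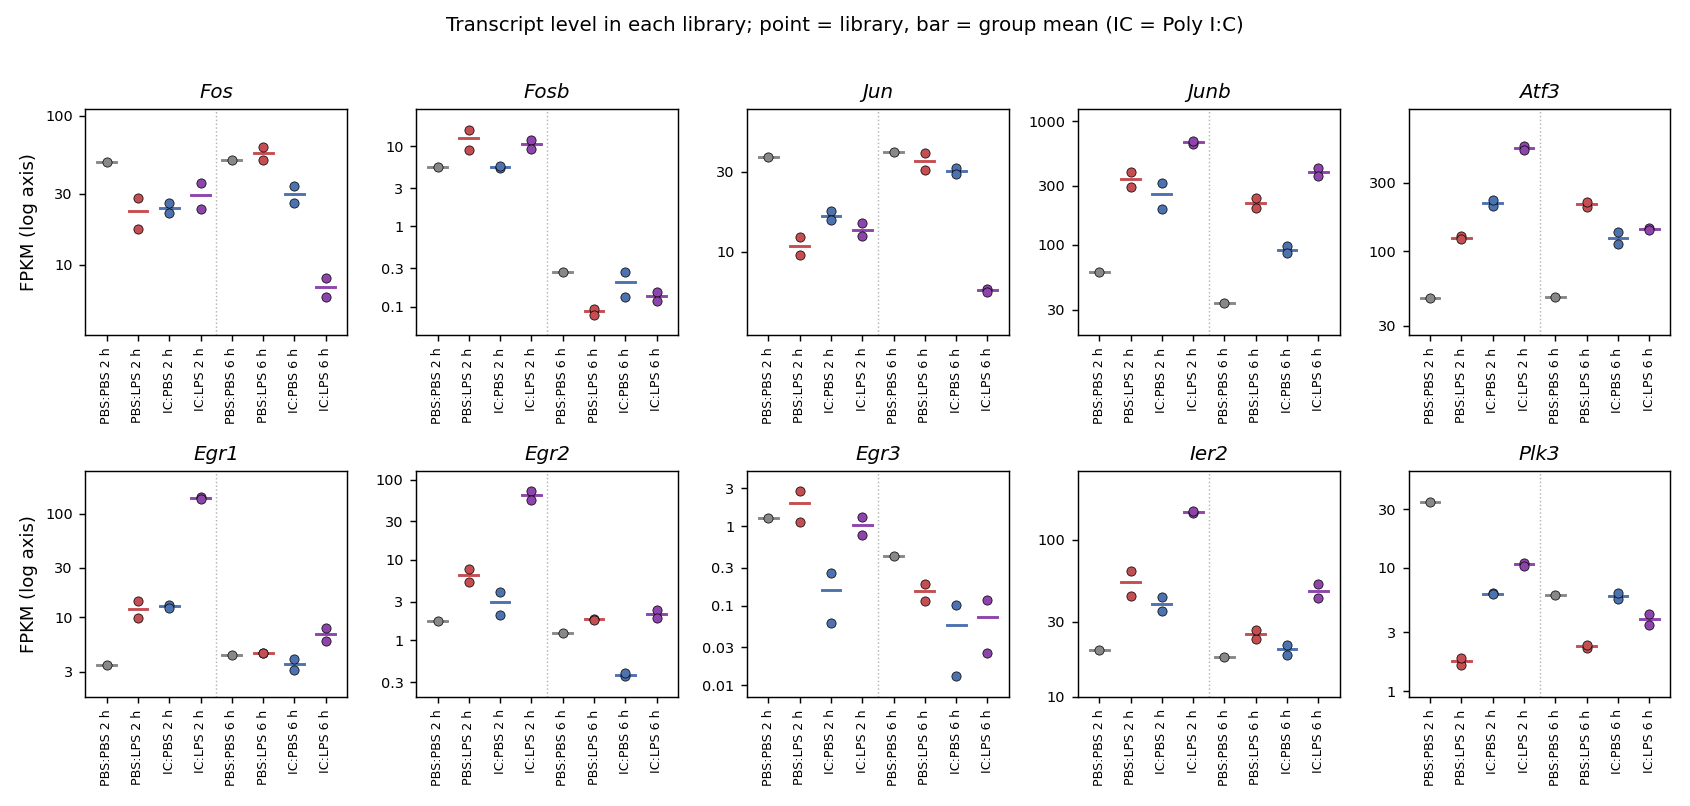
Level of each gene in each library, in FPKM on a log axis. Points are libraries, bars are group means, IC is Poly I:C, and the dotted line separates 2 h from 6 h. Egr1 and Egr2 peak in primed cells 2 h after LPS, while Fos and Jun are lowest in primed cells 6 h after LPS.

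Egr1, a zinc finger factor induced by growth factors and stress, lies at chr18:34859823-34864985 (GRCm38, as for all loci below). At 2 h it was at 3.46 FPKM in the PBS then PBS library, 9.84 and 14.5 FPKM after PBS then LPS, 13.1 and 12.5 FPKM after Poly I:C then PBS, and 143 and 137 FPKM after Poly I:C then LPS. The last pair stood far above every other library. At 6 h the values were 4.36 FPKM in PBS then PBS, 4.53 and 4.56 FPKM in PBS then LPS, 3.11 and 3.95 FPKM in Poly I:C then PBS, and 8.0 and 5.95 FPKM in Poly I:C then LPS. The primed LPS libraries were again the highest at that time.

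Egr2, a related factor known from myeloid and nerve development, lies at chr10:67535475-67542188. Its 2 h values were 1.73 FPKM in PBS then PBS, 5.29 and 7.70 FPKM in PBS then LPS, 3.99 and 2.03 FPKM in Poly I:C then PBS, and 71.4 and 56.3 FPKM in Poly I:C then LPS. The 6 h libraries were at 1.21 FPKM in PBS then PBS, 1.84 and 1.8 FPKM in PBS then LPS, 0.355 and 0.389 FPKM in Poly I:C then PBS, and 2.37 and 1.87 FPKM in Poly I:C then LPS. Egr2 thus ordered its groups much as Egr1 did, with the primed LPS libraries at 2 h on top. Over the 14 libraries the Pearson correlation of Egr1 and Egr2 was 0.971, the highest of the 45 pairs of these genes, given as a description of libraries that share groups.

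Egr3, the least expressed member of its family here, lies at chr14:70077136-70082634 and reached 1 FPKM in 4 libraries, all at 2 h. It was at 1.27 FPKM in PBS then PBS at 2 h, 1.13 and 2.78 FPKM in PBS then LPS, 0.260 and 0.061 FPKM in Poly I:C then PBS, and 0.772 and 1.32 FPKM in Poly I:C then LPS. At 6 h every library was at or under 0.423 FPKM. It entered the test only through its higher libraries, and the added 1 in log2(FPKM + 1) compresses changes at such levels.

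Fos, the partner of Jun in classical AP-1, lies at chr12:85473890-85477273. At 2 h it was at 49.0 FPKM in PBS then PBS, 17.4 and 28.2 FPKM in PBS then LPS, 25.95 and 22.2 FPKM in Poly I:C then PBS, and 35.6 and 23.5 FPKM in Poly I:C then LPS. The last 3 groups overlapped. Later, at 6 h, Fos was at 50.4 FPKM in PBS then PBS, 61.3 and 50.4 FPKM in PBS then LPS, 25.9 and 33.5 FPKM in Poly I:C then PBS, and 8.23 and 6.12 FPKM in Poly I:C then LPS. The primed LPS libraries at 6 h were the lowest of all 14.

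Jun lies at chr4:95049034-95167886, an assembled locus that runs far past the annotated gene, which ends at 95052222, and overlaps 2 other entries. The entry naming BC042782 and n-R5s189 had means of 2.55 FPKM in PBS then LPS and 17.4 FPKM in Poly I:C then LPS at 2 h. At 6 h these means were 6.81 and 0.561 FPKM. The other, 4930551L18Rik, reached 0.189 FPKM. What part reads of these entries had in the Jun values was not tested. Jun at 2 h was at 36.8 FPKM in PBS then PBS, 12.2 and 9.50 FPKM in PBS then LPS, 17.4 and 15.5 FPKM in Poly I:C then PBS, and 14.8 and 12.3 FPKM in Poly I:C then LPS. The 6 h values of Jun were 39.4 FPKM in PBS then PBS, 30.7 and 39.0 FPKM in PBS then LPS, 31.7 and 29.2 FPKM in Poly I:C then PBS, and 6.03 and 5.73 FPKM in Poly I:C then LPS. Like Fos, Jun was lowest in the primed LPS libraries at 6 h, and the correlation of the pair over 14 libraries was 0.871.

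Junb, an AP-1 subunit that can oppose Jun, lies at chr8:84956610-84981097 in a locus that also overlaps Prdx2 and Rnaseh2a. Over the libraries Prdx2 was at 76.1 to 239.6 FPKM and Rnaseh2a at 7.77 to 44.4 FPKM. At 2 h it was at 60.3 FPKM in PBS then PBS, 389 and 292 FPKM in PBS then LPS, 318 and 196 FPKM in Poly I:C then PBS, and 659 and 698 FPKM in Poly I:C then LPS. At 6 h Junb was at 33.6 FPKM in PBS then PBS, 199.8 and 239 FPKM in PBS then LPS, 97.3 and 86.3 FPKM in Poly I:C then PBS, and 419.8 and 364 FPKM in Poly I:C then LPS. At both times the order was PBS then PBS lowest and primed LPS highest, although PBS then LPS and Poly I:C then PBS overlapped at 2 h. Whether counting used the strand is not given in the sources used here, so reads of overlapping genes may have been shared for Jun, Junb and Plk3.

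Fosb, a Fos paralogue, lies at chr7:19302698-19310092 and split by time without overlap. All 7 libraries at 2 h were at or above 5.30 FPKM, including 5.47 FPKM in PBS then PBS, and all 7 at 6 h were at or under 0.272 FPKM. Its highest group mean, 12.5 FPKM, was in PBS then LPS at 2 h. The 2 libraries of that group, at 8.92 and 16.0 FPKM, overlapped the 12.0 and 9.28 FPKM of Poly I:C then LPS. These LPS libraries lay above the 2 h libraries given PBS second, which were at most 5.66 FPKM. Because it passed the filter only through the 2 h libraries, a difference between the times had to follow.

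Atf3, a stress-induced factor that binds with AP-1 subunits and can repress inflammatory genes, lies at chr1:191170268-191183545. Atf3 at 2 h was at 46.7 FPKM in PBS then PBS, 126 and 120.5 FPKM in PBS then LPS, 206 and 229 FPKM in Poly I:C then PBS, and 544 and 510.3 FPKM in Poly I:C then LPS, with no overlap between groups. By 6 h Atf3 was at 48.1 FPKM in PBS then PBS, 204 and 218 FPKM in PBS then LPS, 136 and 113 FPKM in Poly I:C then PBS, and 144 and 140.0 FPKM in Poly I:C then LPS. The order of the LPS groups was therefore the opposite at the later time.

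Ier2, a small nuclear protein of the immediate-early class, lies at chr8:84661331-84662852. At 2 h it was at 19.9 FPKM in PBS then PBS, 62.8 and 43.8 FPKM in PBS then LPS, 43.2 and 34.9 FPKM in Poly I:C then PBS, and 149 and 153 FPKM in Poly I:C then LPS. At 6 h it was at 18.0 FPKM in PBS then PBS, 23.2 and 26.6 FPKM in PBS then LPS, 18.5 and 21.4 FPKM in Poly I:C then PBS, and 52.4 and 42.2 FPKM in Poly I:C then LPS. Primed LPS libraries were the highest at each time.

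Plk3, a polo-like kinase linked to stress responses, lies at chr4:117119217-117133963, overlapping Tctex1d4 and Btbd19. It was at 34.1 FPKM in the single PBS then PBS library at 2 h, 1.62 and 1.86 FPKM in PBS then LPS, 6.23 and 6.15 FPKM in Poly I:C then PBS, and 11 and 10.4 FPKM in Poly I:C then LPS. At 6 h it was at 5.98 FPKM in PBS then PBS, 2.22 and 2.38 FPKM in PBS then LPS, 5.54 and 6.21 FPKM in Poly I:C then PBS, and 4.24 and 3.43 FPKM in Poly I:C then LPS. The 2 h control stood above every other library, and in it Btbd19 was at 7.41 and Tctex1d4 at 1.01 FPKM. Every Plk3 comparison with that control rests on this library.

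The first comparison asked how earlier Poly I:C changed the level after LPS. At 2 h, 6 of the 10 genes were higher in primed cells and none was lower, where 61.1% of all tested entries were called, 32.6% higher and 28.5% lower. The share called was thus near the background. The absence of lower genes rested on 1 library: without replicate 1 of PBS then LPS at 2 h, Egr3 (-0.90) and Fosb (-0.56) were called lower and Jun (0.47) higher. Without replicate 2 of that group, Fos (0.70) was called higher. Egr1 was 11.5-fold higher by the ratio of mean FPKM, Egr2 9.83-fold, Plk3 6.17-fold, Atf3 4.27-fold, Ier2 2.83-fold and Junb 1.99-fold. On the log2(FPKM + 1) scale the rise of Egr1 was 3.44 ± 0.19 (SE; limma, Benjamini-Hochberg adjusted p = 1.92e-07) and that of Egr2 3.12 ± 0.24 (limma adjusted p = 2.4e-06). The rises of Plk3 and Atf3 were 2.10 ± 0.14 and 2.08 ± 0.12, and those of Ier2 and Junb 1.5 ± 0.18 and 1.01 ± 0.22. Fos (0.37 ± 0.26), Jun (0.30 ± 0.16), Fosb (-0.17 ± 0.23) and Egr3 (-0.49 ± 0.25) did not pass the test in the full set of libraries. The median difference was 1.26 over the 10 genes and 0.054 over all tested entries.

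At 6 h the AP-1 genes went in opposite directions. Fos was 7.79-fold lower and Jun 5.94-fold lower in primed cells by the ratio of means, or -2.80 ± 0.26 (limma adjusted p = 1.45e-05) and -2.37 ± 0.16 (limma adjusted p = 1.84e-06) on the log2 scale. Atf3 fell by 0.57 ± 0.12, while Ier2, Junb, Plk3 and Egr1 rose by 0.89 ± 0.18, 0.84 ± 0.22, 0.54 ± 0.14 and 0.51 ± 0.19. In all, 4 genes were higher and 3 lower, against 49.6% of entries called (23.7% higher and 25.9% lower). Egr2, Egr3 and Fosb did not pass. Egr3 and Fosb were under 1 FPKM in every 6 h library, so the test could hardly call them. Without replicate 1 of Poly I:C then LPS at 6 h, Egr1 (0.33), Plk3 (0.42) and Junb (0.73) lost their calls. Junb also lost its call without replicate 1 of PBS then LPS at 6 h (0.71). The Egr1 call was lost in 10 of 18 alternatives, with differences from 0.33 to 0.70 over all of them, among them the omission of either PBS then LPS library at 6 h or of any library of Poly I:C then LPS or Poly I:C then PBS at 2 h.

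**Figure D2:**
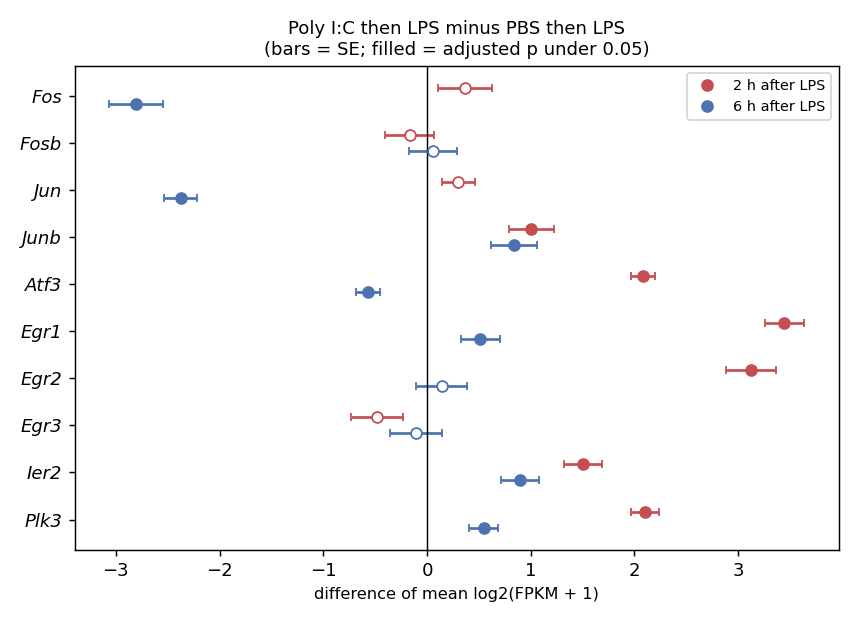
Difference in mean log2(FPKM + 1) between Poly I:C then LPS and PBS then LPS, at 2 h (red) and 6 h (blue). Points are fitted differences, bars are SE and filled points passed an adjusted p under 0.05. Egr1 and Egr2 lie above 3 at 2 h, and Fos and Jun lie below -2 at 6 h.

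The change in this difference from 2 h to 6 h was tested directly. It was called in 6 of the 10 genes, all downward, against 44.4% of entries, 19.1% upward and 25.3% downward. On the log2 scale it was -3.17 ± 0.37 for Fos, -2.98 ± 0.35 for Egr2, -2.93 ± 0.27 for Egr1, -2.68 ± 0.22 for Jun, -2.65 ± 0.17 for Atf3 and -1.55 ± 0.19 for Plk3. Ier2 (-0.61 ± 0.26), Junb (-0.17 ± 0.31), Fosb (0.23 ± 0.33) and Egr3 (0.38 ± 0.36) did not pass. Without replicate 1 of PBS then LPS at 2 h, Ier2 (-0.87) and Egr3 (0.80) were called.

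LPS was then compared with PBS within each history, in libraries partly shared with the comparisons above. In unprimed cells at 2 h, 9 of the 10 genes passed, where 15.9% of entries did, 9.47% higher and 6.39% lower. Junb (2.46 ± 0.27), Egr1 (1.54 ± 0.23), Egr2 (1.44 ± 0.30), Atf3 (1.38 ± 0.14), Ier2 (1.36 ± 0.23) and Fosb (1.01 ± 0.28) were higher, and Plk3 (-3.68 ± 0.17), Jun (-1.69 ± 0.19) and Fos (-1.11 ± 0.32) were lower. The control was 1 library, assumed to vary like the other groups. The Fosb call was lost in 13 of 19 alternatives and the Fos call in 10 of 19, including without PBS then LPS replicate 2 for Fosb (0.62) and replicate 1 for Fos (-0.78). Omitting either library of PBS then LPS at 6 h, of Poly I:C then LPS at 6 h or of Poly I:C then PBS at 2 h also ended both calls at unchanged values, as did omitting either Poly I:C then PBS library at 6 h for Fosb. With both PBS then PBS libraries as 1 control, the Plk3 change was -2.52. With the 2 h libraries alone, 6 genes were called, and Egr2 was lost along with Fos and Fosb. The share of all entries called fell there too, from 15.9% to 9.82%.

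In primed cells at 2 h, LPS raised 8 of the 10 genes and lowered none, where 22.8% of entries were called, 14% higher and 8.72% lower. Egr3, among the 8, reached 1 FPKM in no Poly I:C then PBS library. It entered the test only through groups where it was higher, so the filter favoured its call. Egr2 rose by 4.05 ± 0.24 (limma adjusted p = 3.68e-06), a 21.2-fold ratio of mean FPKM, and Egr1 by 3.35 ± 0.19 (limma adjusted p = 2.47e-06), an 11-fold ratio. Ier2 rose by 1.93 ± 0.18, Junb by 1.44 ± 0.22, Atf3 by 1.27 ± 0.12, Fosb by 0.84 ± 0.23, Egr3 by 0.81 ± 0.25 and Plk3 by 0.71 ± 0.14. Fos (0.26 ± 0.26) and Jun (-0.26 ± 0.16) did not pass. The Egr3 call was lost in 13 of 18 alternatives, with rises of 0.62 to 1.0 when a library of its own 2 groups was left out, and at 0.81 without either library of PBS then LPS, Poly I:C then PBS or Poly I:C then LPS at 6 h. The Fosb call was lost in 6 of 18, at 0.67 when replicate 1 of the primed LPS group was omitted and at 0.80 and 0.88 without Poly I:C then PBS replicates 1 and 2.

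The LPS effect itself differed between histories at 2 h for 4 of the 10 genes, all in the direction of a higher value in primed cells, where 4.29% of entries were called, 2.52% in that direction and 1.77% in the other. The difference was 4.39 ± 0.22 for Plk3, 2.61 ± 0.39 for Egr2, 1.82 ± 0.30 for Egr1 (limma adjusted p = 0.00744) and 1.42 ± 0.25 for Jun. For Plk3 it was 3.22 with both PBS then PBS libraries as 1 control. In the main fit all 4 differences rest on the 1 PBS then PBS library at 2 h. The Egr2 and Jun calls were lost when the 2 h libraries were fitted alone, where 1.63% of entries were called. For Junb the difference was -1.02 ± 0.35 and did not pass in the full set, but was called without replicate 2 of Poly I:C then PBS (-1.37). Fos (1.37 ± 0.41) was called without replicate 2 of PBS then LPS (1.70) and with both controls pooled (1.39).

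At 6 h, LPS in unprimed cells raised Junb (2.67 ± 0.27) and Atf3 (2.11 ± 0.14) and lowered Plk3 (-1.08 ± 0.17). That was 3 of 10 against 43.4% of entries (22.9% higher and 20.6% lower). Every count out of 10 at 6 h includes Fosb and Egr3. Both were under 1 FPKM in every 6 h library, so the test could hardly call them. The control was 1 library here too, and the differences between histories at 6 h also rest on it. With both PBS then PBS libraries as 1 control the Plk3 change was -2.25. In primed cells LPS raised Junb (2.08 ± 0.22), Ier2 (1.20 ± 0.18), Egr2 (1.18 ± 0.24) and Egr1 (0.81 ± 0.19) and lowered Jun (-2.19 ± 0.16), Fos (-1.91 ± 0.26) and Plk3 (-0.51 ± 0.14), 7 of 10 against 43.9% (21.7% higher and 22.2% lower). The Egr1 call was lost when replicate 1 of the primed LPS group was omitted (0.62), and the Plk3 call without replicate 2 of either Poly I:C then LPS (-0.39) or Poly I:C then PBS (-0.44). The effects differed between histories for Fos (-2.05 ± 0.41), Jun (-2.01 ± 0.25) and Atf3 (-1.91 ± 0.18), 3 of 10 against 29.4% of entries (12.7% upward and 16.7% downward). Without either PBS then LPS library at 2 h, Egr1 and Ier2 were also called, at their unchanged 0.76 and 0.75. Fos and Jun fell after LPS in primed cells, with 0.14 ± 0.32 and -0.18 ± 0.19 in unprimed cells, and Atf3 rose in unprimed cells, with 0.20 ± 0.12 in primed cells.

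**Figure D3:**
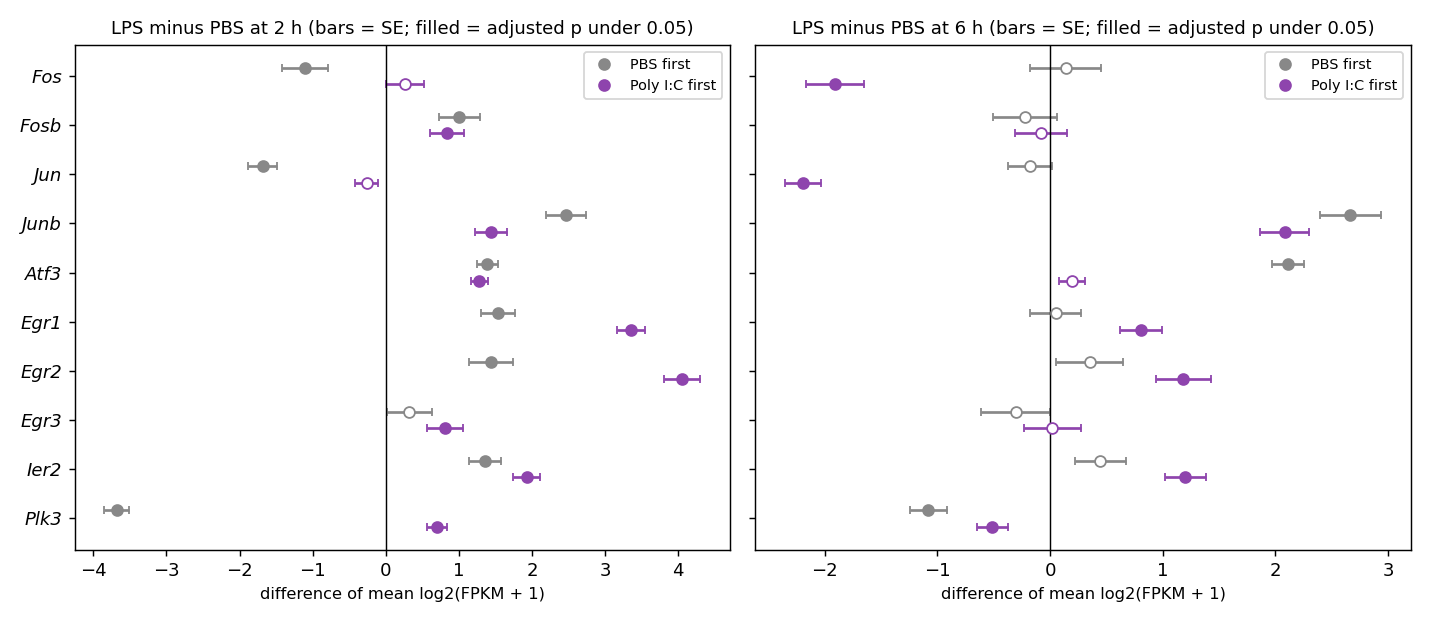
Difference in mean log2(FPKM + 1) between LPS and PBS at 2 h (left) and 6 h (right), for cells given PBS first (grey) or Poly I:C first (purple). Points are fitted differences, bars are SE and filled points passed an adjusted p under 0.05. At 2 h Egr2 is at 4.05 in primed and 1.44 in unprimed cells, and at 6 h Fos and Jun are near 0 in unprimed cells and at -1.91 and -2.19 in primed cells.

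Poly I:C alone was compared with PBS alone, with 1 control library at each time. Counting from the second addition, 2 h after it Atf3 (2.19 ± 0.14), Junb (2.03 ± 0.27), Egr1 (1.63 ± 0.23) and Ier2 (0.93 ± 0.23) were higher. Plk3 (-2.29 ± 0.17), Jun (-1.12 ± 0.19), Fos (-1.0 ± 0.32) and Egr3 (-0.97 ± 0.31) were lower. That was 8 of 10 against 47.3% of entries (24.9% higher and 22.4% lower). Egr3 reached 1 FPKM in no Poly I:C then PBS library and entered the test through other groups, so the filter favoured its call. At 6 h Junb (1.42 ± 0.27) and Atf3 (1.34 ± 0.14) were higher, 2 of 10 against 34.5% (18.4% higher and 16.1% lower). Fosb and Egr3 are among the 10 but could hardly be called there, being under 1 FPKM in every 6 h library. The Plk3 call at 2 h was lost with both PBS then PBS libraries as 1 control (-1.12). Egr3 was lost there too (-0.64), while Egr2 was gained (0.66). Without Poly I:C then PBS replicate 2 at 2 h, the Fos (-0.89) and Egr3 (-0.85) calls were lost and Egr2 (0.87) was gained. Fos and Egr3 were also lost with the 2 h libraries alone and with no filter. At 6 h Fos was gained at its unchanged -0.76 without either PBS then LPS library at 2 h.

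Because Fosb and Egr3 entered the test only through 2 h libraries, counts between the times are given for the other 8 genes. From 2 h to 6 h all 8 fell in primed cells given LPS, where 40% of entries were called, 14.7% higher and 25.3% lower. The log2 change was -4.37 ± 0.24 for Egr2, -4.16 ± 0.19 for Egr1, -1.89 ± 0.26 for Fos and -1.88 ± 0.12 for Atf3. The smaller changes were -1.66 ± 0.18 for Ier2, -1.28 ± 0.14 for Plk3, -1.08 ± 0.16 for Jun and -0.79 ± 0.22 for Junb. Fosb and Egr3 were at -3.35 ± 0.23 and -0.92 ± 0.25. The median was -1.77 over the 8 genes and -0.10 over all tested entries. In mean FPKM, Egr2 was 30.1-fold and Egr1 20.1-fold lower at 6 h. Junb lost its call without either Poly I:C then LPS library at 2 h (-0.83 and -0.75) or replicate 2 at 6 h (-0.69).

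In unprimed cells given LPS, 7 of these 8 genes differed between the times, against 49.4% of entries (23.4% higher and 26% lower). Jun (1.6 ± 0.16), Fos (1.29 ± 0.26) and Atf3 (0.77 ± 0.12) were higher at 6 h, and Egr2 (-1.39 ± 0.24), Egr1 (-1.22 ± 0.19), Ier2 (-1.05 ± 0.18) and Junb (-0.62 ± 0.22) were lower. Fosb and Egr3 were at -3.58 ± 0.23 and -1.30 ± 0.25. The Junb call was lost in 10 of 17 alternatives. Its value was -0.41 without PBS then LPS replicate 1 at 2 h, -0.49 and -0.75 without replicates 1 and 2 at 6 h, and unchanged without either library of Poly I:C then LPS at 2 h or 6 h or of Poly I:C then PBS at 6 h. After Poly I:C then PBS, 6 of the 8 differed against 30.4% (12.3% higher and 18% lower), with Jun higher (0.85 ± 0.16) and Egr1, Egr2, Junb, Ier2 and Atf3 lower, at -1.61 to -0.81. Fosb was at -2.43 ± 0.23 there. The PBS then PBS libraries had no replicate and no test. There Fosb was 20.2-fold, Plk3 5.71-fold, Egr3 3.0-fold, Junb 1.79-fold and Egr2 1.43-fold lower at 6 h, beside 1.73-fold for Junb in primed cells given LPS. Fos, Jun, Atf3, Ier2 and Egr1 were at ratios of 1.03, 1.07, 1.03, 0.903 and 1.26.

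**Figure D4:**
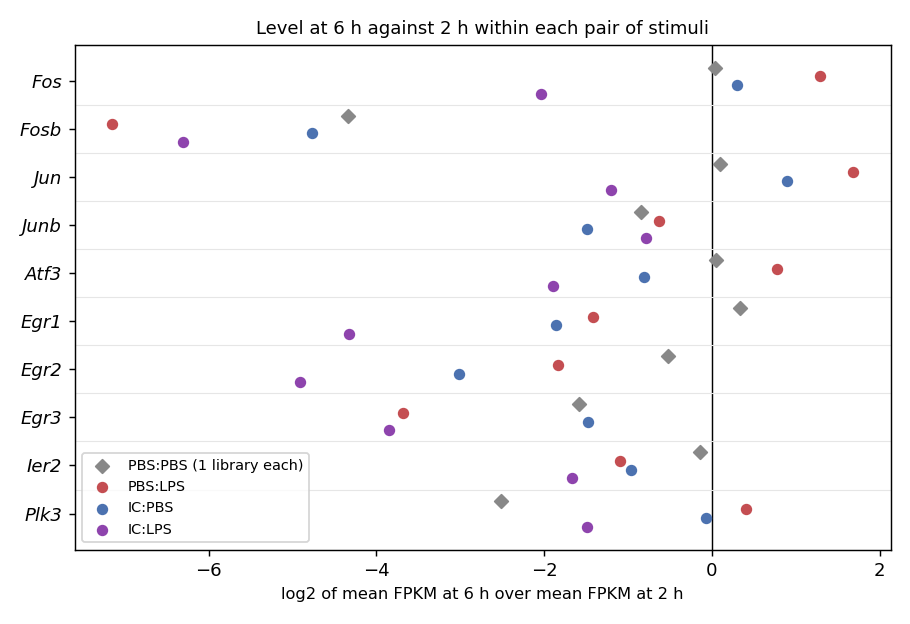
Log2 ratio of mean FPKM at 6 h to that at 2 h for each pair of stimuli. Grey diamonds are PBS then PBS, with 1 library at each time, and circles are means of 2 libraries, with no error drawn. Fosb is far below 0 in all 4, and Fos, Jun and Atf3 are above 0 after PBS then LPS and below 0 after Poly I:C then LPS.

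Genes around these in the same pathways were read from fixed lists in the comparison of primed with unprimed cells after LPS, where the median over all tested entries was 0.054 at 2 h and -0.00019 at 6 h. Each count stands against 61.1% of entries called at 2 h, 32.6% higher and 28.5% lower, and 49.6% at 6 h, 23.7% higher and 25.9% lower. Of 20 tested other immediate-early genes, 15 were higher and 1 lower at 2 h, with a median of 1.62, and 9 were higher and 5 lower at 6 h, with a median of 0.72. Klf4, a zinc finger factor, rose by 3.59 ± 0.20 at 2 h and 2.89 ± 0.20 at 6 h. Nr4a1, an orphan nuclear receptor, rose by 3.22 ± 0.21 and 2.11 ± 0.21, and Btg2, an antiproliferative gene, by 2.86 ± 0.19 at 2 h. Myc, a growth regulator, fell by 2.74 ± 0.18 at 6 h.

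**Figure D5:**
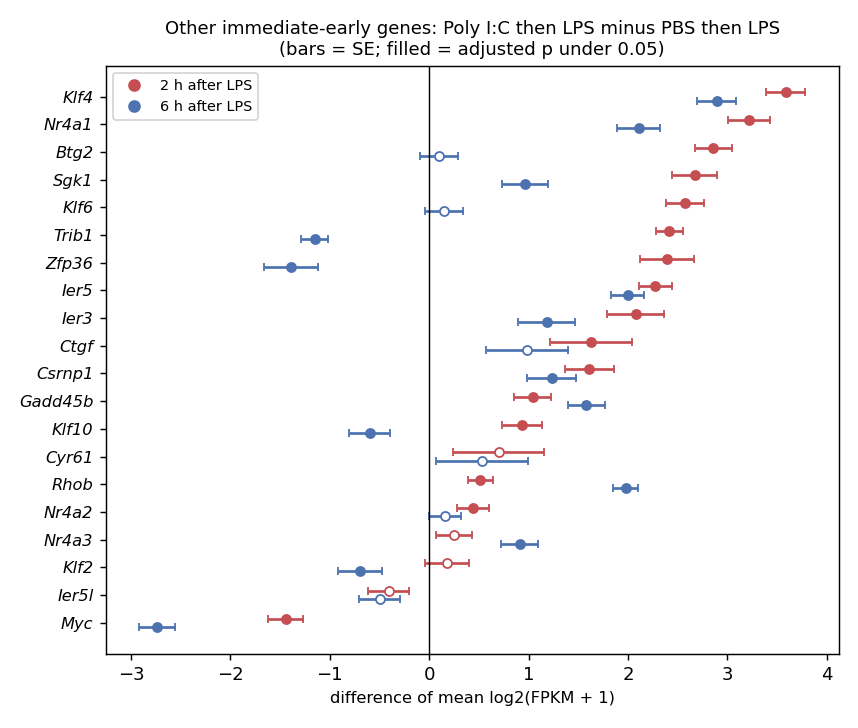
Difference in mean log2(FPKM + 1) between Poly I:C then LPS and PBS then LPS for the 20 tested other immediate-early genes, at 2 h (red) and 6 h (blue). Points are fitted differences, bars are SE and filled points passed an adjusted p under 0.05. Klf4 and Nr4a1 are high at both times, Zfp36 changes sign, and Myc is the lowest.

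Among 17 tested other AP-1 and bZIP partners, 9 were higher and 3 lower at 2 h, and 8 higher and 2 lower at 6 h, with medians of 0.56 and 0.52, shares near the 61.1% and 49.6% of all entries. Batf2, which pairs with Jun proteins, rose by 4.8 ± 0.25 at 2 h, from a mean of 7.38 to 225 FPKM. Maff, a small Maf protein, had 2 tested entries. The one with the larger change rose by 1.43 ± 0.27 at 2 h and 2.62 ± 0.27 at 6 h, and the other was at 0.01 ± 0.23 and 0.72 ± 0.23. Jdp2 also had 2 tested entries, which went opposite ways at 2 h. The one counted above was lower at 2 h (-1.25 ± 0.14) and the other higher (2.06 ± 0.18). At 6 h they were at 0.55 ± 0.14 and 1.63 ± 0.18. Nab1 and Nab2, corepressors of EGR proteins, moved apart at 2 h (1.18 ± 0.17 and -0.68 ± 0.15) and were both lower at 6 h (-1.05 ± 0.17 and -2.11 ± 0.15).

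Against the same 61.1% and 49.6% of entries called, of 9 MAP kinase phosphatases, which switch off the kinases upstream of AP-1, 6 were higher and 3 lower at 2 h, and 3 higher and 1 lower at 6 h, with medians of 1.43 and -0.22. Dusp4 rose by 2.41 ± 0.23 and 2.31 ± 0.23, and Dusp1 fell by 1.02 ± 0.19 at 6 h. Of 12 tested kinases of the MAP kinase cascades, 4 were higher and 4 lower at 2 h, and 2 higher and 6 lower at 6 h. Their medians were 0.18 and -0.43, and at 2 h the shares were near the 32.6% and 28.5% of all entries. Of 5 tested genes for serum response factor and its cofactors, 3 were higher at 2 h and 4 at 6 h, with none lower and medians of 0.33 and 0.90.

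The 3 other polo-like kinases all passed at both times, where 61.1% and 49.6% of entries did. Plk2, a stress-induced relative of Plk3, rose by 4.92 ± 0.22 and 1.66 ± 0.22, and Plk1, a mitotic kinase, was lower at -3.29 ± 0.20 and -2.72 ± 0.20. Zfp36, which directs decay of AU-rich mRNAs, rose by 2.39 ± 0.27 at 2 h and fell by 1.39 ± 0.27 at 6 h, and of 6 such decay and stability factors 3 were higher and 1 lower at 2 h and 1 each at 6 h, with medians of 0.29 and -0.02. Of 12 genes described as AP-1 targets, 3 were higher and 4 lower at 2 h, and 1 higher and 6 lower at 6 h, with medians of -0.11 and -0.63. The share called was near that of all entries at each time. At 6 h Ccnd1, a cyclin, fell by 5.49 ± 0.24, from a mean of 149 to 2.31 FPKM.

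The genes most like each member were ranked by Pearson correlation of log2(FPKM + 1) over the 14 libraries, among 8380 tested entries naming 1 gene with a group mean of at least 5 FPKM. Egr1 was closest to Arl5b (0.972) and Egr2 (0.971). Junb was closest to Abtb2 (0.986) and Gadd45b (0.985), Atf3 to Atp1b3 (0.978), and Ier2 to Rabgef1 (0.97). Jun was closest to Rassf2 (0.943) and Fos to Dock8 (0.931), while the closest to Plk3 among these was Zbtb4 (0.803).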

How the data were processed

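Polyadenylated RNA of 14 macrophage libraries was sequenced in paired 76 bp reads with a stranded kit, per the labels' protocols. Alignment with TopHat2 and quantification with Cufflinks and Cuffnorm are named in the submitters' processing notes, and versions and scaling are not given in the sources used here. The authors deposited 1 table of FPKM, fragment counts scaled by transcript length and library size, with 1 column per library. Their notes name build mm9, but of 33795 entries naming 1 gene 99.8% overlapped the GRCm38 gene of that name, so coordinates are GRCm38.

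The scale was log2(FPKM + 1), and a named entry was tested if 2 or more libraries reached 1 FPKM. All 14 libraries entered 1 linear model of group means in limma 3.58.1 (R 4.3.3), with an intensity trend and 6 residual degrees of freedom. Benjamini-Hochberg adjustment covered all tested entries of each of 14 comparisons, 2-sided, called under 0.05. Named genes were the 10 members, up to 3 called genes of largest change per list and time, and the 2 closest patterns per member, of which some are printed and some are not reported here. The members and lists were chosen with earlier results of these data known. In simulated data, 200 of 11977 genes were changed, drawn from the better expressed ones. The comparison of primed with unprimed cells after LPS at 2 h recovered 90% of changes of log2 1, and LPS against the lone control at 2 h 61%. Both recovered 0% of changes of log2 0.5. A far larger share of entries was called in the data, so these shares need not hold there or for low genes. Alternatives were another pseudocount, no filter, median-of-ratios scaling, no trend, each time alone, both controls pooled, a replicate block and the omission of each replicate.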

Additional observations from a re-analysis of the deposited data

Results flagged for a closer look

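In these results the effect of a stimulus differed between cell histories or between times by a test of the difference itself (limma, Benjamini-Hochberg adjusted over all tested entries). The change after LPS in primed minus that in unprimed cells at 2 h was 4.39 for Plk3, 2.61 for Egr2, 1.82 for Egr1 and 1.42 for Jun on the log2(FPKM + 1) scale. At 6 h it was -1.91 for Atf3, -2.05 for Fos and -2.01 for Jun. Jun was therefore positive at 2 h and negative at 6 h.

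The effect of earlier Poly I:C on the level after LPS, at 6 h minus 2 h, was -3.17 for Fos, -2.98 for Egr2, -2.93 for Egr1, -2.68 for Jun, -2.65 for Atf3 and -1.55 for Plk3. Every value of the first set, at 2 h and at 6 h, rests on 1 PBS then PBS library at that time. For Plk3 at 2 h that library was at 34.1 FPKM.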

How the results depend on the processing

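Of 2540 values of these genes under alternatives, 2408 kept their direction and their side of the threshold, 86 lost a call, 27 gained one and 19 changed sign, all of them called in neither fit. Of 89 called values, 71 kept the call under every alternative run and 18 lost it at least once. Median-of-ratios scaling and the fit without a trend changed no call. Where an omission left 1 library in a group, it was assumed to vary like the others. Of the 19, 17 came from the omission of 1 replicate, over which Fosb ranged from -0.56 to 0.22 in primed against unprimed LPS at 2 h and from -0.56 to 0.22 in the difference between LPS effects at 2 h. In the priming effect at 6 h minus 2 h, Fosb ranged from -0.16 to 0.62, Egr3 from -0.032 to 0.80 and Junb from -0.38 to 0.037. After LPS in unprimed cells, Egr3 ranged from -0.091 to 0.74 at 2 h and Fos from -0.0017 to 0.28 at 6 h. After LPS in primed cells, Fos ranged from -0.029 to 0.55 at 2 h, and Egr3 from -0.043 to 0.082 and Fosb from -0.16 to 0.0049 at 6 h. For Poly I:C alone, Fosb ranged from -0.037 to 0.041 at 2 h and -0.17 to 0.0018 at 6 h, and Plk3 from -0.094 to 0.047 at 6 h. Plk3 between the times after Poly I:C then PBS ranged from -0.14 to 0.0050. Fosb under Poly I:C alone at 2 h was also -0.033 with median-of-ratios scaling and -0.050 with the replicate block. The count for Poly I:C alone at 6 h was 2, and became 4 with the 6 h libraries alone and 5 with both controls pooled. The share of all entries called went from 34.5% to 37.2% and 40.4% in these fits. The count for the difference between LPS effects at 2 h was 4, and became 2 with the 2 h libraries alone. The share of all entries called there fell too, from 4.29% to 1.63%. The count for the same difference at 6 h was 3, against 29.4% of entries, and became 5 with the 6 h libraries alone, against 31.9%. The count for primed against unprimed LPS at 6 h was 7, against 49.6% of entries. Omitting 1 replicate also changed the share of all entries called, so counts from those fits are not compared here.

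Like-numbered replicates deviated together at correlations of -0.19 to 0.078 over 15 pairs of groups, so the numbers were not taken to pair libraries. With a replicate block, 4 calls were lost: Egr1 in primed against unprimed LPS at 6 h (0.51), Egr3 after LPS in primed cells at 2 h (0.81), and Fos (-1.07) and Fosb (0.96) after LPS in unprimed cells at 2 h. Depth is unknown, and low values such as those of Egr3 carry the least precision. The cause of these changes was not tested.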
